A study of Mus musculus with 16 samples.

Results

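The macrophage growth, phagocytic and Fc receptor genes are 10 genes chosen by name: Csf1r, Cx3cr1, Itgam, Cd68, Mertk, Axl, Trem2, Fcgr1, Fcgr3 and Tyrobp. All 10 were found among the 9614 genes of the deposited table, and the rule takes them by name with no threshold on a value. They were followed in 16 RNA-seq libraries of primary bone-marrow-derived macrophages (BMDM) from male C57BL/6 mice of 8 weeks. WT mice had the genotype LysM-Cre:NELF-B wt/wt and NELF-B KO mice the genotype LysM-Cre:NELF-B fl/fl. Both genotypes are thus labelled as Cre carriers, and NELF-B is a subunit of the negative elongation factor that holds RNA polymerase II near the start of genes. LysM-Cre is expressed from the lysozyme 2 locus in myeloid cells, so the loss of Nelfb depends on how many cells have recombined. Each genotype gave 2 untreated libraries, 3 libraries after 1 hr with LPS at 10 ng/ml and 3 after 1 hr with LPS at that dose plus 100 nM dexamethasone (LPS + Dex). LPS is a bacterial agonist of TLR4, and Dex is a synthetic glucocorticoid. The mouse numbers in the labels show that the libraries came from 3 mice of each genotype, called A, B and C here, and that mice A and B gave all 3 treatments while mouse C gave LPS and LPS + Dex only. The letters match mice across genotypes only loosely. A string of digits, whose meaning the labels do not give, is shared by 1 of the 3 libraries of WT mouse B and all 3 of KO mouse B, both mice called C carry a number after the letter S, while the A mice, 1 of each genotype, are those left over and share no such mark.

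These genes hold the surface equipment by which a macrophage grows, finds and eats its targets. CSF1R is the receptor for CSF1 and IL-34 on which the survival and growth of most macrophages depend, and BMDM are grown with its ligand. CX3CR1 is the receptor for fractalkine. ITGAM (CD11b) pairs with the beta 2 chain to form complement receptor 3. CD68 is a heavily glycosylated protein of late endosomes and lysosomes. MERTK and AXL are TAM receptor kinases, which recognise phosphatidylserine on apoptotic cells through the bridging proteins GAS6 and PROS1 and dampen inflammatory signalling. TREM2 binds lipids and lipoproteins and signals through TYROBP (DAP12), an adaptor with an ITAM, the tyrosine motif that recruits the kinase SYK. FCGR1 is the high-affinity receptor for IgG and FCGR3 a low-affinity one, and both signal through the Fc receptor gamma chain FCER1G.

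Values are log2 CPM, the base 2 logarithm of the reads on a gene scaled to the depth of the library, so a difference of 1 is a doubling. A gene was called at a Benjamini-Hochberg adjusted p under 0.05 over all 9614 genes in limma. Depth was not limiting: 25030785 to 49730258 reads per library were recovered on the genes of the table, and the lowest number of reads on any of the 10 genes was 594, for Cx3cr1 in the LPS + Dex library of WT mouse B. Nelfb was lower in each of the 8 KO libraries (3.27 to 4.38 log2 CPM) than in each of the 8 WT libraries (5.59 to 6.21). The 6 macrophage markers examined were all in the table, with Emr1 at 10.97 to 12.51 log2 CPM, whereas Lyz2 was low (4.30 to 6.33). Of the markers of other cells, 1 of 9 neutrophil genes (S100a8, 2.45 to 5.38), 1 of 4 B cell genes (Cd79b, 3.75 to 5.31) and 4 of 5 stromal genes were in the table, and none of those of T and NK cells, dendritic cells, mast cells or erythroid cells. The summed stromal genes ran from 49.2 to 89.7 CPM in untreated, 64.4 to 125 CPM in LPS and 94.4 to 145 CPM in LPS + Dex libraries, and their part in the results was not tested. In such bulk samples, fewer cells of a type and less RNA per cell cannot be told apart. The untreated library of WT mouse A stood apart: its correlation with the others over all genes was 0.83 to 0.91, against 0.92 to 0.99 among the other 15, and it was the highest or the lowest of all 16 libraries for 7 of the 10 genes. It held the highest value for 33.5% and the lowest for 34.9% of all genes, so values without it are given beside the LPS changes that rest on it.

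Per kilobase of the longest coding transcript, the ITAM adaptor Tyrobp stood at the top of the 10 genes, with a median over the 16 libraries of 10.63 on the scale of log2 CPM per kilobase. It was followed by Cd68 (10.18), Trem2 (9.47), Csf1r (9.46), Itgam (8.25), Fcgr3 (7.76), Fcgr1 (6.41), Mertk (5.43), Cx3cr1 (3.36) and Axl (3.28). The neighbours Trem2 and Csf1r overlapped in their ranges (8.95 to 10.91 and 9.13 to 9.70), as did Cx3cr1 and Axl (2.08 to 4.43 and 2.06 to 4.10) and Tyrobp and Cd68 (10.54 to 11.33 and 9.73 to 10.59). The neighbours Cd68 and Trem2, Itgam and Fcgr3, Fcgr3 and Fcgr1, and Mertk and Cx3cr1 overlapped as well. By these medians the adaptor Tyrobp was more abundant per length than its partner Trem2, though their ranges overlapped. The uptake kinase Mertk was more abundant than its relative Axl.

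RefSeq start sites with upstream sequence were used for 8 of the 10 genes (assembly GRCm38.p6). The 250 bases before each start were searched on both strands for short motifs of regulators known in macrophages. The searched letters were GAGGAA for PU.1, the lineage factor of myeloid cells, TGANTCA for AP-1, GGG and TTCC with 3 bases of any kind between them for NF-kB, and AGAACA for the glucocorticoid receptor (GR). The PU.1 letters were found before 6 of the 8 genes (Itgam, Cd68, Axl, Trem2, Fcgr1 and Fcgr3), against 23.3% of 32851 promoter windows of the same length. The AP-1 letters were found before Cd68 and Trem2 (6.75% of all windows), the NF-kB letters before Fcgr3 (4.65%) and the GR letters before none of the 8 (16.1%). No matched bases of different motifs overlapped in these windows. The windows of 4 genes are shown, with matched bases in capitals: Itgam for its pair of PU.1 matches, 84 and 15 bases before the start, Cd68 and Trem2 for their PU.1 and AP-1 matches, and Mertk, the gene that moved with Dex below, for holding none of the 4.
Itgam (chr7:128062390-128062639, plus strand): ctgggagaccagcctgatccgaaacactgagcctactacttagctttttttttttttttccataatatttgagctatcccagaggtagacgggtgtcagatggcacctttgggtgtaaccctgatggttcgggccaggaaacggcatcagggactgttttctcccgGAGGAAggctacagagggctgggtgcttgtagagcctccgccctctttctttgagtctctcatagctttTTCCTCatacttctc
Cd68 (chr11:69666171-69666420, minus strand): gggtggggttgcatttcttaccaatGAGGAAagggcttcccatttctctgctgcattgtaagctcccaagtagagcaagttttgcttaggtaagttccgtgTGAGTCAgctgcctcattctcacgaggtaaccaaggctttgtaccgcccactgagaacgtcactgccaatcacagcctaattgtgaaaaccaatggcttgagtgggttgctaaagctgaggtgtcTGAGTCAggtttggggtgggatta
Trem2 (chr17:48346151-48346400, plus strand): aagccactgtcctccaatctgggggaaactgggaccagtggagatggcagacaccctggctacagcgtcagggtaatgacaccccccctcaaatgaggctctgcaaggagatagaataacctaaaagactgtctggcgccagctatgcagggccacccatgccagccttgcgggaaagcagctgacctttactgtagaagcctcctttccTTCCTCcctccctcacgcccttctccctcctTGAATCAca
Mertk (chr2:128698665-128698914, plus strand): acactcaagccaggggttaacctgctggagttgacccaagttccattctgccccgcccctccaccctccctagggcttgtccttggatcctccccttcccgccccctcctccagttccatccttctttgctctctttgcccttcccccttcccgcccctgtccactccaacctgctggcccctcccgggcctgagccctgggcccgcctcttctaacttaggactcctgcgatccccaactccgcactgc
Mertk lies at chr2:128698956-128802894 (plus), Itgam at chr7:128062640-128118491 (plus), Cd68 at chr11:69664213-69666153 (minus) and Trem2 at chr17:48346401-48354147 (plus), all protein coding, and the windows shown lie upstream of them. These matches describe the letters of short windows and do not show that a factor bound there.

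The levels of these genes spread more widely among mice of one group than the Dex difference did within mice. The SD among mice of the same genotype and treatment, pooled over the 4 groups with 3 mice, was 0.72 log2 for Axl, 0.71 for Cx3cr1 and 0.52 for Fcgr1, which lay at the percentiles 97.9, 97.9 and 95.2 of all genes. Csf1r was the steadiest of the 10 (0.12, percentile 26.1), and the median of all genes was 0.17. The SD of the LPS + Dex minus LPS difference within a mouse was smaller than the SD among mice for each of the 10 genes, by 1.97 times for Fcgr3 up to 16.9 times for Cx3cr1. The medians of all genes went the same way, with 0.17 among mice and 0.088 for the difference within mice, so this direction was not particular to these genes.

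**Figure D1:**
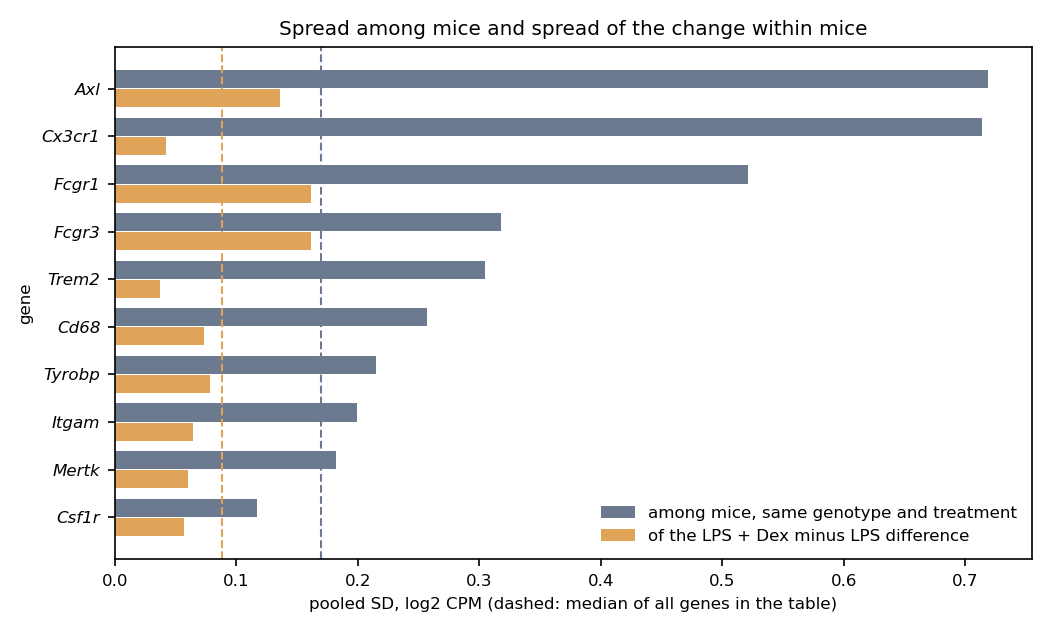
Pooled SD in log2 CPM (x axis) of each of the 10 genes (y axis) among mice of the same genotype and treatment (grey) and of the LPS + Dex minus LPS difference within mice (orange), with dashed lines at the medians of all 9614 genes (0.17 and 0.088). Axl and Cx3cr1 had the widest spread among mice (0.72 and 0.71), and Trem2 (0.037) and Cx3cr1 (0.042) the narrowest spread of the difference within mice.

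Cx3cr1 sorted by mouse letter without overlap. Its level was 5.93 to 6.60 log2 CPM in the 6 libraries of the mice called A, 5.42 to 5.66 in the 4 libraries of the mice called C and 4.25 to 5.23 in the 6 libraries of the mice called B, in WT and KO alike. Of all genes 0.26% were higher in each library of the mice called A than in each other library. Within LPS-treated WT, mouse A (6.15) was 3.52-fold above mouse B (4.33), with mouse C (5.51) in between. Within LPS-treated KO the order was the same, with 5.98, 5.66 and 5.08 in A, C and B.

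In 3 other members the mice called B also stood apart. The lysosomal protein gene Cd68 was 10.03 to 10.17 in their 6 libraries and 10.39 to 10.89 in the other 10. Trem2 was 9.07 to 9.23 in B and 9.56 to 11.03 in the others. Itgam went the opposite way, with 10.54 to 10.82 in B and 9.31 to 10.52 in the others. Of all genes, 5.01% were lower and 5.28% higher in each B library than in each other library, against 3 of 10 lower and 1 of 10 higher here. The other members overlapped between B and the rest. The labels do not say what the mice called B have in common, and a difference between mice and one between days or batches of culture cannot be told apart here.

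Fcgr1 was set apart by a single mouse. In WT mouse C it stood at 8.72 in LPS and 8.76 in LPS + Dex, and the other 14 libraries lay between 7.36 and 8.11. The genes with the most similar pattern over the 16 libraries were Uba7 (Pearson r = 0.94) and Ifitm3 (r = 0.93), which are both known to be induced by interferon, as Fcgr1 is. Ifitm3 was likewise highest in WT mouse C (9.39 in LPS and 9.35 in LPS + Dex, against 7.88 to 8.73 elsewhere). Uba7 was at 7.17 and 7.15 in these libraries and at 6.24 to 6.78 elsewhere. Both genes were picked for their similarity to Fcgr1 over these same libraries, so their high values in that mouse follow from the choice. A part of interferon in the values of WT mouse C was not tested.

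**Figure D2:**
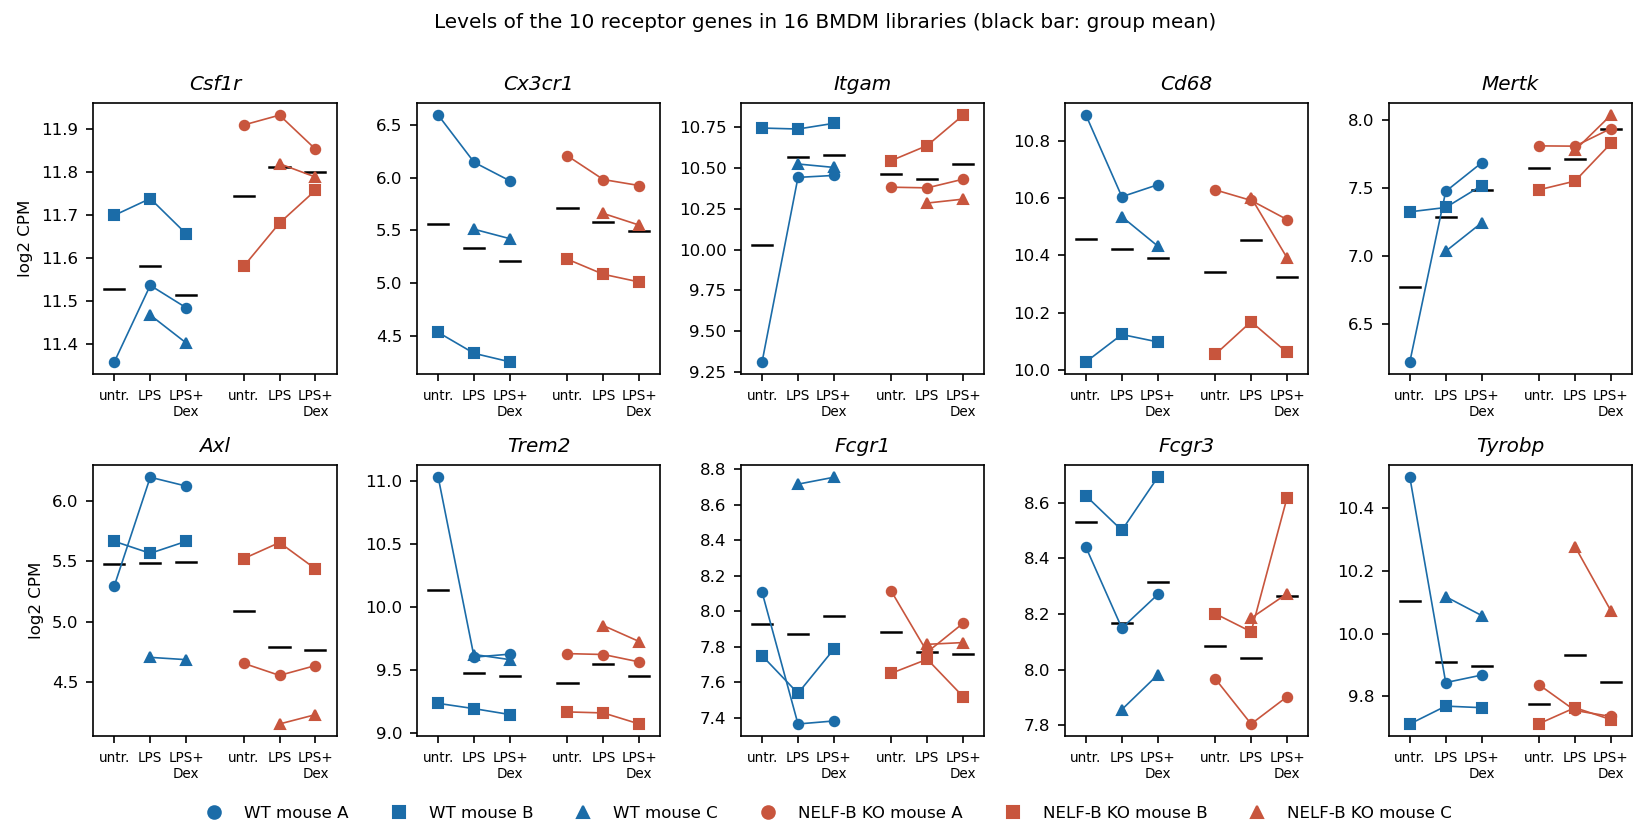
Level in log2 CPM (y axis, a separate range for each gene) of the 10 genes in untreated, LPS and LPS + Dex BMDM (x axis), with WT in blue, NELF-B KO in red, a symbol for each mouse letter, lines joining libraries of one mouse and black bars at the group means. Lines for Cx3cr1 run nearly parallel, from 6.60 in the highest to 4.25 in the lowest library, and the untreated library of WT mouse A lies far from the other libraries for Itgam (9.31), Mertk (6.22) and Trem2 (11.03).

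The first comparison asked how 1 hr of LPS changed these genes. By the test without a mouse term, none of the 10 was called in WT (6.91% of all genes were called) or in KO (4.01%), and none had an unadjusted p under 0.05 in either. The estimated changes of the members had a median of -0.05 log2 in WT and 0.02 in KO, beside medians over all genes of 0.02 and -0.01. A fit without a mouse term sets each change against the spread among mice, and the libraries paired by mouse. LPS and LPS + Dex libraries of one mouse deviated together in all 6 mice (r = 0.78 to 0.94). For untreated and LPS libraries r was 0.19 in WT mouse A, 0.56 in WT mouse B, 0.74 in KO mouse A and 0.82 in KO mouse B.

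Cx3cr1, the fractalkine receptor, was lower after LPS in each of the 4 mice with both libraries. In WT it went from 6.60 to 6.15 in mouse A and from 4.53 to 4.33 in mouse B. In KO it went from 6.21 to 5.98 in mouse A and from 5.23 to 5.08 in mouse B. The groups overlapped because the mice lay far apart, while the within-mouse differences ran from -0.45 to -0.14 log2, or 0.733 to 0.906 of the untreated level. With the mouse as a block, 1 of the 10 genes was called in WT (13.8% of all genes) and none in KO (7.32%). Cx3cr1 fell in WT by 0.33 log2 (SE 0.09, limma adjusted p = 0.043, with 5.18% of all genes called lower), and its change in KO was -0.18 (SE 0.09, limma adjusted p = 0.43). Without the untreated library of WT mouse A, the untreated WT group was 1 library, so WT changes rested on mouse B alone. The blocked fit then called 1 of the 10 in KO (27.9% of all genes). The Cx3cr1 changes were -0.18 in WT and -0.18 in KO (in KO SE 0.05, limma adjusted p = 0.015, with 13.2% of all genes called lower). The KO call thus came only without that library, and the WT call only with it. The difference between the genotypes was then 0.01 log2, with WT resting on mouse B. LPS was below untreated in all 4 mice for 18.7% of all genes, and among the 10 genes also for Fcgr3 (-0.29 to -0.07) and Trem2 (-1.43 to -0.01).

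In WT, Itgam, Mertk, Trem2 and Tyrobp differed between LPS and untreated in mouse A and hardly in mouse B. Itgam differed by 1.13 log2 in mouse A, from 9.31 to 10.44, and by -0.01 in mouse B, from 10.74 to 10.74. Mertk differed by 1.26 in mouse A and 0.03 in mouse B. Trem2 differed by -1.43 in mouse A and -0.04 in mouse B, and Tyrobp by -0.66 and 0.06. In the KO mice these 4 genes differed by -0.08 to 0.09 log2. The WT means accordingly carried wide errors (Itgam 0.54, SE 0.31; Mertk 0.52, SE 0.26; Trem2 -0.66, SE 0.41), with limma adjusted p of 0.21 to 0.29. Without the untreated library of WT mouse A the blocked changes were 0.01 for Itgam, 0.02 for Mertk, -0.05 for Trem2 and 0.06 for Tyrobp. These values rested on mouse B, the only WT mouse then left with both libraries. The fit without a mouse term was also run without the untreated library of WT mouse B. It set the LPS libraries of all WT mice against the untreated library of mouse A, which stood apart. The changes were then 1.255 for Itgam, 1.072 for Mertk and -1.562 for Trem2, and their spread came from the other groups.

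The growth receptor Csf1r was above untreated in all 4 mice, by 0.02 to 0.18 log2, a direction shared by 21.9% of all genes. Its blocked change without the untreated library of WT mouse A was 0.03 in WT, from mouse B alone. In KO it was 0.07 (95% interval -0.05 to 0.18) and not called. For Cd68, Axl and Fcgr1 the 4 mice did not all move one way.

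**Figure D3:**
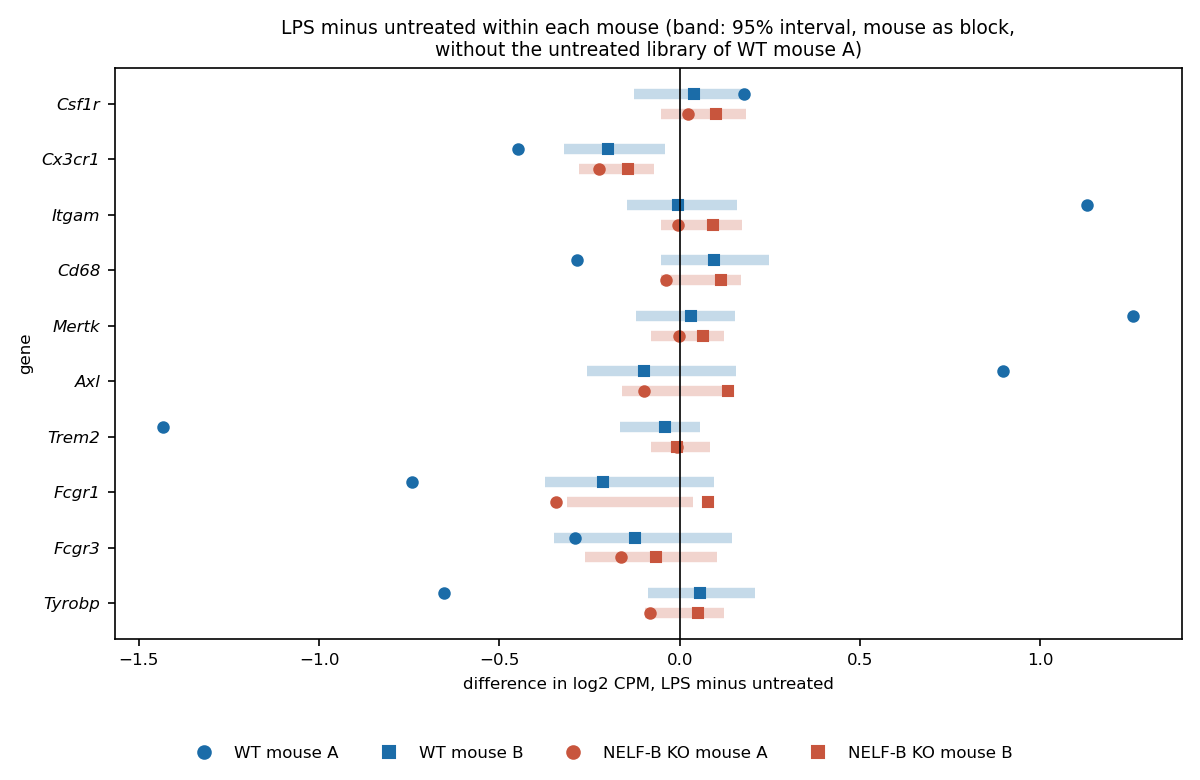
Difference in log2 CPM between LPS and untreated BMDM (x axis) for each gene (y axis) within the 4 mice that gave both, with symbols for mice (WT blue, KO red) and bands for 95% intervals from the fit with mouse as a block, without the untreated library of WT mouse A. The WT bands rest on mouse B alone and take their spread from the other groups. Cx3cr1 lies below 0 in all 4 mice (-0.45 to -0.14), and WT mouse A lies far from the other mice for Mertk (1.26), Itgam (1.13) and Trem2 (-1.43).

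The second comparison asked how Dex changed the genes in LPS-treated cells of the same mice. Without a mouse term none of the 10 genes was called in WT (0.749% of all genes called) or KO (0.895%), and none had an unadjusted p under 0.05. With the mouse as a block in all 16 libraries none was called either (2.19% and 2.57% of all genes). In the block fit restricted to the 12 LPS and LPS + Dex libraries, an alternative chosen after seeing the data, 10.4% of all genes were called in WT and 14.1% in KO, and among the 10 genes Mertk in both genotypes and Fcgr3 in KO.

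Mertk, the apoptotic cell receptor kinase, was higher with Dex in each of the 6 mice. In WT its level went from 7.48 to 7.69 in mouse A, from 7.36 to 7.52 in mouse B and from 7.03 to 7.24 in mouse C. In KO it went from 7.81 to 7.94 in mouse A, from 7.55 to 7.83 in mouse B and from 7.78 to 8.04 in mouse C. The WT groups overlapped and the KO groups did not, and the share of all genes that separated in this way was not counted. The 6 within-mouse differences lay between 0.13 and 0.28 log2, a change of 1.09- to 1.21-fold. In the restricted block fit Mertk rose by 0.19 log2 in WT (SE 0.04, limma adjusted p = 0.0026, 4.77% of all genes called higher) and by 0.22 in KO (SE 0.04, limma adjusted p = 8e-04, 7.1% called higher). The call held in both genotypes when both libraries of any 1 mouse were left out, with changes of 0.19 to 0.27 log2. It also held in the block fit of the 15 libraries without the untreated library of WT mouse A (WT limma adjusted p = 0.0061, KO 0.0020), where Mertk was the 1 member called in WT (9.62% of all genes, 4.5% higher) and in KO (13%, 6.65% higher). The change differed between genotypes by 0.03 log2 (95% interval -0.08 to 0.14). LPS + Dex lay above LPS in all 6 mice for 9.16% of all genes.

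Fcgr3, the low-affinity Fc receptor, was the other member with higher values in all 6 mice. In WT it went from 8.15 to 8.27 in mouse A, from 8.50 to 8.69 in mouse B and from 7.86 to 7.98 in mouse C. In KO it went from 7.80 to 7.90 in mouse A, from 8.14 to 8.62 in mouse B and from 8.19 to 8.27 in mouse C. Of these, 5 differences were 0.09 to 0.19 log2, and that of KO mouse B was 0.48. In the restricted block fit Fcgr3 rose in KO by 0.22 log2 (SE 0.06, limma adjusted p = 0.028), and the change in WT was 0.15 (SE 0.06, limma adjusted p = 0.20). Fcgr3 was not called in the fit of 15 libraries, its KO call was lost without KO mouse B, and the WT change was then called without that mouse (0.15, limma adjusted p = 0.005). The difference between genotypes was 0.08 (95% interval -0.11 to 0.26). Fcgr3 lies in a cluster of Fc receptor genes with related sequences, and since the authors counted unique exon reads, reads that match more than 1 of them may be missing from its value. Its neighbour in family, the inhibitory receptor Fcgr2b, also rose in KO in this fit (0.30, SE 0.07, limma adjusted p = 0.010).

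No member was called lower with Dex. Cx3cr1 values with Dex were below those without it in 6 of 6 mice, as for 10.4% of all genes, by differences of -0.18 to -0.06 log2, and it was not called (WT -0.12, SE 0.04, limma adjusted p = 0.11; KO -0.08, SE 0.04, limma adjusted p = 0.25 in the restricted block fit). The within-mouse differences ran both ways for Cd68 (-0.211 to 0.042), Trem2 (-0.127 to 0.024), Tyrobp (-0.205 to 0.024) and Csf1r (-0.082 to 0.076). The largest of these changes were those of Cd68 in KO (-0.13, 95% interval -0.22 to -0.04, limma adjusted p = 0.059) and Trem2 in KO (-0.09, 95% interval -0.16 to -0.02, limma adjusted p = 0.097). Leaving out KO mouse A called Cd68 in KO. Axl, the other TAM kinase, was higher in 3 mice and lower in 3 (-0.22 to 0.10), with blocked changes of 0.00 in WT (95% interval -0.13 to 0.13) and -0.02 in KO (-0.15 to 0.11). Itgam (-0.021 to 0.186) and Fcgr1 (-0.211 to 0.249) also differed both ways within mice and were not called. For the 10 genes, the widest 95% intervals of the restricted block fit ended at -0.22 and 0.36 log2.

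**Figure D4:**
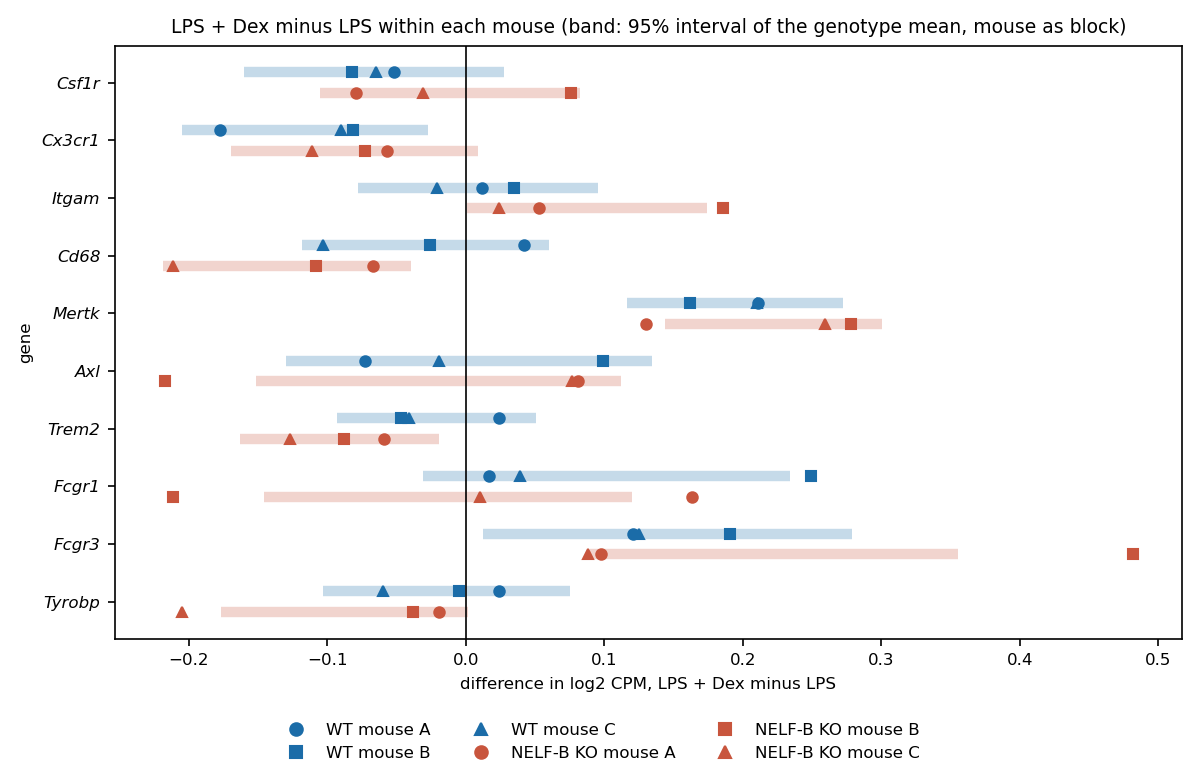
Difference in log2 CPM between LPS + Dex and LPS (x axis) for each gene (y axis) within the 6 mice, with symbols for mice (WT blue, KO red) and bands for 95% intervals of the genotype means from the fit with mouse as a block on 12 libraries. Mertk (0.13 to 0.28) and Fcgr3 (0.09 to 0.48) lie above 0 and Cx3cr1 (-0.18 to -0.06) below 0 in all 6 mice.

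The third comparison asked whether the genes differed between NELF-B KO and WT. None of the 10 was called in untreated (0.0104% of all genes called), LPS (0.146%) or LPS + Dex (0.114%) BMDM, and the count of unadjusted p under 0.05 was 1, 0 and 0. With a term for the mouse letter it was again none in each (0.0312%, 1.09% and 1.77% of all genes called).

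The TAM kinase Mertk was higher in KO in all 8 pairs of the same letter and treatment, a direction shared by 7.72% of all genes, and it was the only one of the 10 that lay above or below in all 8. The pairs of mice called A have no shared label. Without treatment, WT mice A and B stood at 6.22 and 7.33, KO mice A and B at 7.81 and 7.49. After LPS the WT mice had 7.03 to 7.48 and the KO mice 7.55 to 7.81, and after LPS + Dex 7.24 to 7.69 and 7.83 to 8.04, so that the groups did not overlap at any treatment (KO above WT for 15.7%, 5.91% and 8.93% of all genes). The difference was 0.88 log2 untreated (SE 0.28, limma adjusted p = 0.32), 0.43 in LPS (SE 0.23, limma adjusted p = 0.93) and 0.45 in LPS + Dex (SE 0.23, limma adjusted p = 0.73). With a letter term on the libraries compared only, chosen after seeing the data, the limma adjusted p was 1.00 untreated (SE 0.42), 0.16 in LPS and 0.11 in LPS + Dex (0.0312%, 0.125% and 0.614% of all genes called untreated, in LPS and in LPS + Dex). The untreated difference was 1.60 in mice A and 0.16 in mice B. The untreated, LPS and LPS + Dex libraries come from the same mice, so the 8 pairs do not count as separate evidence.

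Markers of cell identity are given beside these values. Lyz2, the locus that carries LysM-Cre, lay higher in each KO than in each WT library at every treatment, with 4.31 to 4.63 log2 CPM in WT and 5.38 to 5.42 in KO untreated, 4.45 to 5.30 and 5.92 to 6.33 in LPS, and 4.30 to 5.08 and 5.77 to 6.24 in LPS + Dex. At the single treatments this held for 15.7%, 5.91% and 8.93% of all genes. Emr1 overlapped between genotypes (in LPS 11.62 to 12.51 in WT and 12.32 to 12.49 in KO), as did the neutrophil gene S100a8 (in LPS 2.45 to 4.36 and 3.80 to 5.18). The 6 macrophage markers summed to 6038 to 8772 CPM in WT and 8006 to 8679 CPM in KO after LPS, and the 4 stromal genes to 64.4 to 111 and 99.7 to 125 CPM. The part of these markers in the genotype values of Mertk and the other members was not tested.

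Csf1r was higher in KO in the mice called A (0.37 to 0.55 log2) and C (0.35 and 0.39), and differed by -0.12 to 0.10 in those called B. After LPS + Dex the 3 KO mice (11.85, 11.76 and 11.79 in A, B and C) all lay above the 3 WT mice (11.48, 11.66 and 11.40), a difference of 0.29 (SE 0.14, limma adjusted p = 0.66). Of all genes 8.93% lay above in this way. Axl was lower in KO by 0.70 in LPS (SE 0.49, limma adjusted p = 1.00) and 0.72 in LPS + Dex (SE 0.49, limma adjusted p = 0.94). Most of that came from the mice called A, in which Axl was at 6.19 in WT and 4.56 in KO after LPS. In the mice called B the levels were 5.57 and 5.66, and in those called C 4.71 and 4.16. Fcgr3 was lower in both untreated KO libraries (7.97 and 8.20) than in both untreated WT libraries (8.44 and 8.63), as were 13.8% of all genes, and its order differed by letter after treatment. Itgam, Cd68, Trem2 and Tyrobp differed by -0.24 to 0.23 log2 in each letter after LPS and LPS + Dex.

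**Figure D5:**
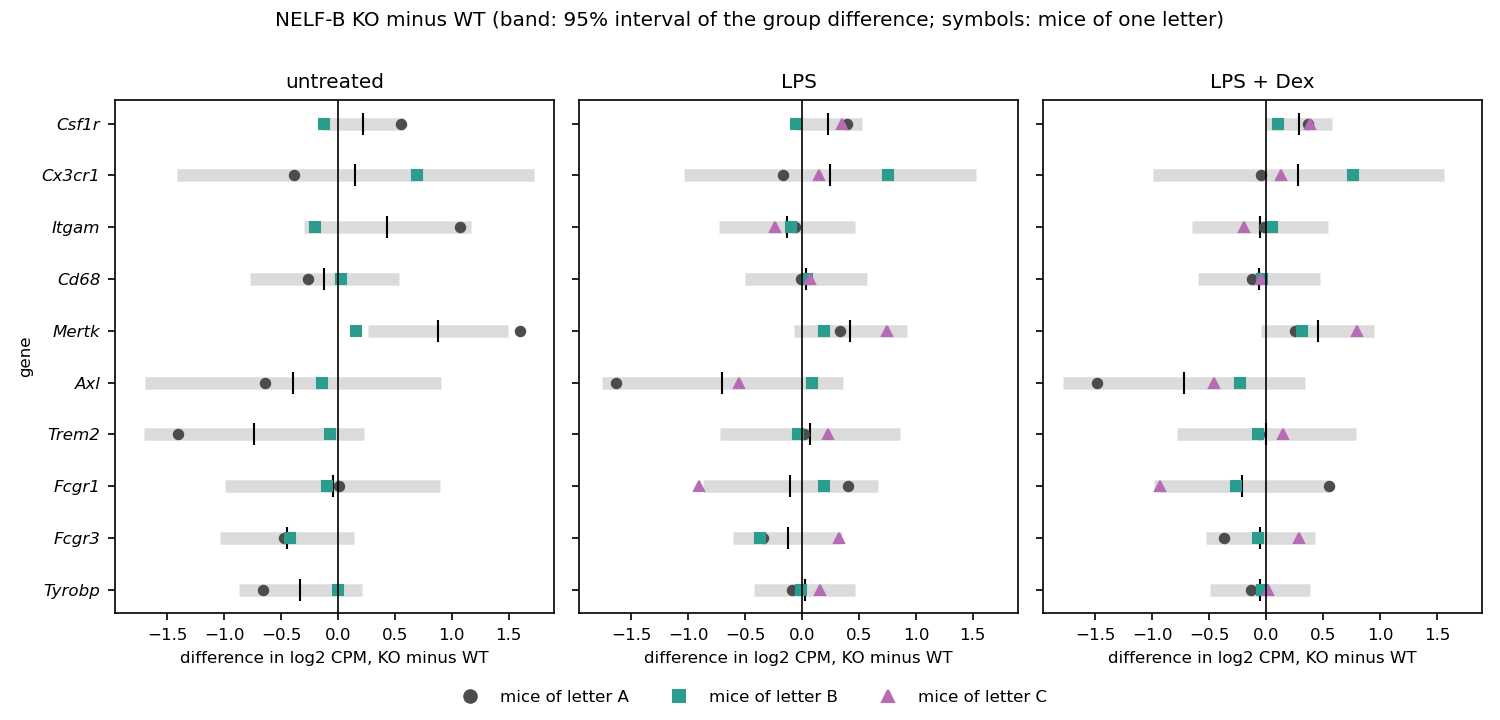
Difference in log2 CPM between NELF-B KO and WT (x axis) for each gene (y axis) in untreated, LPS and LPS + Dex BMDM, with symbols for pairs of mice of one letter, black ticks for the group difference and grey bands for its 95% interval from the fit of all 16 libraries without a mouse term. Mertk lies above 0 in all 8 pairs (0.16 to 1.60), and Axl reaches -1.64 in the mice called A after LPS.

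For none of the 10 genes was the LPS change or the Dex change called different between genotypes (0% of all genes called in both, and 0 of the 10 at an unadjusted p under 0.05). With the mouse as a block and without the untreated library of WT mouse A, the differences in LPS change lay between -0.05 and 0.06 log2, with WT resting on mouse B alone. In the restricted block fit, the differences in Dex change lay between -0.11 and 0.08 (0.0104% called).

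The 7 lists of partner genes, 55 of which were in the table, were examined beside them. Without a mouse term 1 of the 55 was called after LPS in WT and the same number in KO, and none with Dex or between genotypes (4.63% and 2.92% of all genes were called higher with LPS in WT and KO). That gene was Rhbdf2 (iRhom2), which matures the protease ADAM17 that sheds CSF1R and MERTK from the cell surface: it rose by 1.27 log2 in WT (SE 0.17, limma adjusted p = 0.00033) and 0.99 in KO (SE 0.17, limma adjusted p = 0.0029). With the mouse as a block, 6 of the 55 rose with LPS in WT and 5 in KO, and none fell, where 8.61% and 4.65% of all genes were called higher. Csf1, the ligand of CSF1R, rose by 0.81 in WT and 0.96 in KO, and Cx3cl1, the ligand of CX3CR1, by 0.57 and 0.62 (limma adjusted p = 0.044 and 0.048). The TYROBP-coupled receptor Trem1 rose by 1.48 and 2.15, and Clec5a, another TYROBP partner, by 0.76 and 0.68. Adam17 itself rose in WT (0.39, limma adjusted p = 0.029). Without the untreated library of WT mouse A, the WT changes rested on mouse B alone. They were 0.65 for Csf1, 2.00 for Trem1, 0.69 for Clec5a, 0.91 for Rhbdf2 and 0.22 for Adam17, and Cx3cl1 was no longer called in WT. Adam17 was then called in KO as well (0.17, limma adjusted p = 0.013). In that fit 5 of the 55 rose and 1 fell in WT (Lrp1, -0.48), where 8.91% of all genes were called higher and 5.95% lower, and 14 rose and none fell in KO, where 14.7% were called higher. The genotype difference in the LPS change was called for none of the 55.

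With Dex, the block fit of all libraries called 1 of the 55 partner genes in each genotype, Clec5a (1.01% and 1.19% of all genes called lower). The restricted block fit called 1 higher and 4 lower in WT, and 5 higher and 4 lower in KO. Of all genes 4.77% were called higher and 5.65% lower in WT and 7.1% and 6.99% in KO in that fit, so these counts lay near the background. Clec5a, which had risen with LPS, fell by 0.32 in WT and 0.31 in KO (limma adjusted p = 0.00024 and 0.00031). The integrin chain Itgav fell in WT (-0.29, limma adjusted p = 0.00044), and the cytokine receptor chains Csf2rb2 (-0.20) and Csf2rb (-0.18), whose sequences are closely related, fell in WT. The kinase Lyn rose in both (0.14 and 0.12), and in KO Lrp1, another receptor for dying cells, rose (0.20), as did Trem1 (0.57), while the bridging protein Mfge8 fell (-0.13). Il34, Tyro3, Timd4, Trem3 and Itgad were not analysed here.

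The genes whose levels followed each member most closely over the 16 libraries had Pearson r of 0.86 to 0.99, given as a description, since the libraries share mice and the untreated library of WT mouse A stretches many of these relations. Csf1r was closest to Stab1, a scavenger receptor (0.94). Cx3cr1 was closest to Scarb2 (LIMP-2) (0.97) and Cd68 to Gstm1 (0.99) and Gusb (0.97). Scarb2 and Gusb code for lysosomal proteins. Axl was closest to Pdgfc (0.94) and Tyrobp to Dad1 (0.97). Without the library that stood apart, Stab1, Scarb2, Gstm1, Pdgfc and Dad1 stayed the closest genes (0.93 to 0.98), while those of Itgam (Rapgef5), Mertk (Mtmr3), Trem2 (Ech1), Fcgr1 (Uba7) and Fcgr3 (Slc19a1) were replaced by others. Among the 10 genes themselves, Cx3cr1 and Cd68 had r = 0.91.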

How the data were processed

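RNA was sequenced from 16 BMDM libraries of 6 mice. The authors aligned paired reads of 50 bp against mm10 (CLC Bio Genomic Workbench), kept reads unique to exons, applied the trimmed-mean scaling of edgeR and deposited log2 CPM values for 9614 genes. The submitters' processing notes also name CASAVA 1.8 and FastQC. Versions of the other tools and the filter that left these genes are not given in the sources used here. The 18 deposited columns of the authors' own p-values and FDR were not used. Groups and mouse numbers came from the labels, and doses from the labels' protocols.

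All comparisons used limma on the log2 values as deposited, over every gene: limma 3.58.1 (R 4.3.3; lmFit, contrasts.fit and eBayes with trend; 6 group means, all 16 libraries, two-sided), with Benjamini-Hochberg adjustment over 9614 genes and calls at adjusted p under 0.05. That fit counts libraries of one mouse separately in the shared spread, so its genotype p-values treat them as independent. Blocked fits added the mouse, since libraries with the same number come from the same animal. Deviations of LPS and LPS + Dex libraries of one mouse correlated at 0.78 to 0.94, and those of untreated and LPS libraries at 0.19 to 0.82. The fits were tested on simulated data. All values under 3 CPM were whole multiples of 1 read within 0.1 read (100%), which gave the depths. Transcript lengths came from GENCODE vM21 and upstream sequence from RefSeq (GRCm38.p6). The planned protein sequences were not analysed here.

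The genes, lists and tests were chosen with earlier results of these data known. The text names the 10 genes, partner genes that were called (at most 4 of a list) with Nelfb as the label check, and the 2 genes most like each member.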

Additional observations from a re-analysis of the deposited data

How the results depend on the processing

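In each of the 9 comparisons the count of called members was 0, and it stayed 0 with only the libraries of the groups compared, log2(CPM + 1), genes with a mean log2 CPM above 1, centring on the median gene and, added after seeing the data, voom on recovered reads. It also stayed 0 at adjusted p under 0.1 with over 1.5-fold in the 7 comparisons other than the genotype differences in the LPS and Dex changes, and with the letter term in the 3 comparisons of KO with WT, the only ones for which each was run. The planned edgeR test on recovered reads was not run, because the deposited unit is log2. With the replicate block the count was 1 for LPS in WT (Cx3cr1), and no other call changed. The next 3 settings were chosen after seeing the data. Without the untreated library of WT mouse A the block gave 1 for LPS in KO (Cx3cr1). The replicate block on the 12 LPS and LPS + Dex libraries gave 1 for Dex in WT and 2 in KO. Less both libraries of 1 mouse it gave 1 in WT (2 less KO mouse B) and 2 in KO (3 less KO mouse A, 1 less KO mouse B). All-gene counts moved as well, from 72 to 1002 for Dex in WT and from 86 to 1355 in KO, and for LPS with the block on all libraries from 664 to 1326 in WT (139 with only the libraries compared) and from 386 to 704 in KO (2687 without the untreated library of WT mouse A). For KO minus WT they were 14 in LPS and 11 in LPS + Dex, 0 and 0 with only the libraries compared, and 105 and 170 with the letter term.

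Leaving out 1 library at a time, as planned, gave 0 to 4 called members for LPS in WT, 0 to 4 for the untreated genotype difference and 0 to 3 for the genotype difference in the LPS change. All 3 upper values were those without the untreated library of WT mouse B. In the other 6 comparisons the range was 0 to 0. The following changes turned direction, in the fit without a mouse term, within these ranges of log2 change: for LPS in WT, Cx3cr1 -1.27 to 0.80, Trem2 -1.56 to 0.24, Itgam -0.18 to 1.25 and Mertk -0.036 to 1.07. For LPS in KO, Cx3cr1 ran from -0.63 to 0.35. For Dex, Cx3cr1 ran from -0.62 to 0.37 in WT and -0.33 to 0.16 in KO, and Fcgr3 from -0.043 to 0.31 in WT. For the genotype difference in the LPS change, Mertk ran from -1.01 to 0.10, and for that in the Dex change Mertk from -0.092 to 0.16 and Fcgr3 from -0.10 to 0.27. Dropping 1 library unbalances the mice in that fit. Mertk kept its direction throughout for Dex (0.07 to 0.31 in WT, 0.14 to 0.28 in KO) and for KO minus WT (0.33 to 1.43 untreated, 0.30 to 0.52 in LPS and 0.33 to 0.55 in LPS + Dex).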
